A study of Caenorhabditis elegans with 2 samples.

Results

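The genes described here encode subunits of the 26S proteasome of Caenorhabditis elegans, and the data are the places on the genome where NHR-71, a nuclear hormone receptor tagged with GFP, was found in first-stage (L1) larvae. The members were the protein-coding genes whose names begin with pas-, pbs-, rpt- or rpn- in the Ensembl annotation of the WBcel235 assembly, which is the same assembly as ce11. There were 33 such genes among 19973 protein-coding genes. Of these 33, 26 had a reproducible NHR-71-GFP peak in the promoter window, taken as 1000 bp upstream to 200 bp downstream of the gene start, against 4152 of all 19973 genes (20.8%).

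The samples were 2 biological replicates of 1 group. Hermaphrodite larvae of strain OP480, genotype unc-119(tm4063) III; wgIs480, carried an integrated transgene for NHR-71 with a GFP-FLAG tag at its C-terminus. They were starved after bleaching, so that they stopped together at the L1 stage, and were collected 6 hours after synchronization. Chromatin of whole larvae was sheared by sonication and the tagged protein was precipitated with an antibody against GFP, so the cells in which a site was occupied cannot be told apart. All the worms came from 1 transgenic strain, the promoter of the transgene is not given in the sources used here, and there was no second strain, stage or treatment to compare. The control library was not analysed here.

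The proteasome degrades proteins that carry ubiquitin chains. Its core particle is a barrel of stacked rings, in which alpha subunits (pas genes) form the outer rings and gate the pore, and beta subunits (pbs genes) form the inner rings and hold the proteolytic sites. The regulatory particle caps the barrel: a base with a ring of AAA ATPases (rpt genes) unfolds the substrate, non-ATPase subunits of the base bind ubiquitin or act as scaffolds, and a lid holds the deubiquitinating subunit. In C. elegans, SKN-1, a transcription factor of the CNC family, is known to raise proteasome gene expression when proteasome function is impaired. SKN-1 recognises a short core, GTCAT or ATCAT.

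The DNA under 6 of the promoter peaks is shown to give the sequence at the summits of each subcomplex. For each subcomplex it is the strongest peak whose 100 bp around the summit touched no annotated exon, among the chromosomes printed here, with rpn-12 added because both core words lie in its window. The sequences are from the ce11 reference, read 5′ to 3′ on the strand of the gene, and capitals mark GTCAT or ATCAT on either strand (ATGAC and ATGAT are their reverse complements).
pas-1: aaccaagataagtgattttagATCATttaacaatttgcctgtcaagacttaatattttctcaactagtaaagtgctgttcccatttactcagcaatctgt
pbs-1: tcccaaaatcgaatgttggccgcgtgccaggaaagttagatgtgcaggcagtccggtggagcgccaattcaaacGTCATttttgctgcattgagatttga
rpt-1: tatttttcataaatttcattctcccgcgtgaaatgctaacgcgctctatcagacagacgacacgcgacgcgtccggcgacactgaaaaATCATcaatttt
rpn-2: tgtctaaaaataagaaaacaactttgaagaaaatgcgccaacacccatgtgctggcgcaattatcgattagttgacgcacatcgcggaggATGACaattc
rpn-3: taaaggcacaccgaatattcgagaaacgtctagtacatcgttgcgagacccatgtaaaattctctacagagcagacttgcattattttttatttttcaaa
rpn-12: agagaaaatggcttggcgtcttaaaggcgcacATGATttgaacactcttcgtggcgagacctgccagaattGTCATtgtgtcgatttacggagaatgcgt
The windows lie at chrV:14423447-14423546 on the minus strand for pas-1, chrIV:1709890-1709989 on the minus strand for pbs-1, chrV:11982466-11982565 on the minus strand for rpt-1, chrIII:6198786-6198885 on the plus strand for rpn-2, chrIII:8447122-8447221 on the plus strand for rpn-3 and chrII:11652920-11653019 on the plus strand for rpn-12. The rpn-3 window, under the strongest peak of all the subunit genes, holds neither word.

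Each replicate had 30000 ranked positions, as did the list made from both replicates pooled, and the reproducible set was the top 8540 of the pooled list by signal. Signal is the strength the authors' peak caller gave a position. It ranged from 84.15 to 6143 in the reproducible set, with a median of 193.8. Its scale is not given in the sources used here, so values are set against each other within a list. The exception is the comparison of the 2 replicates, where ratios are given beside those of all matched peaks. The lists give no read counts, and the depth of each library is unknown.

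Both particles of the proteasome were bound at most of their genes. In the core particle, 11 of 14 genes had a peak (78.6%), and in the regulatory particle 15 of 19 did (78.9%). When each replicate list was cut to its 8540 strongest positions, 25 of 33 proteasome genes had a summit in replicate 1, beside 21.2% of all genes, and 24 of 33 had one in replicate 2, beside 21.1% of all genes. Over the 2 replicates the share was 74.2% ± 2.14 for the whole proteasome (SD, n = 2). It was 75% ± 5.05 for the core particle and 73.7% ± 0 for the regulatory particle (SD, n = 2 each), a difference smaller than the spread between the core particle's own replicates. The SD of 0 reflects equal counts of 14 and not the same genes. In the regulatory particle rpn-1 left the cut list in replicate 1 and rpn-6.1 in replicate 2, and 13 genes had a summit in both. In all, 23 members had a summit in both cut lists, beside 19.0% of all genes. The genes of a complex are not replicates of a condition, so the shares carry no test.

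**Figure D1:**
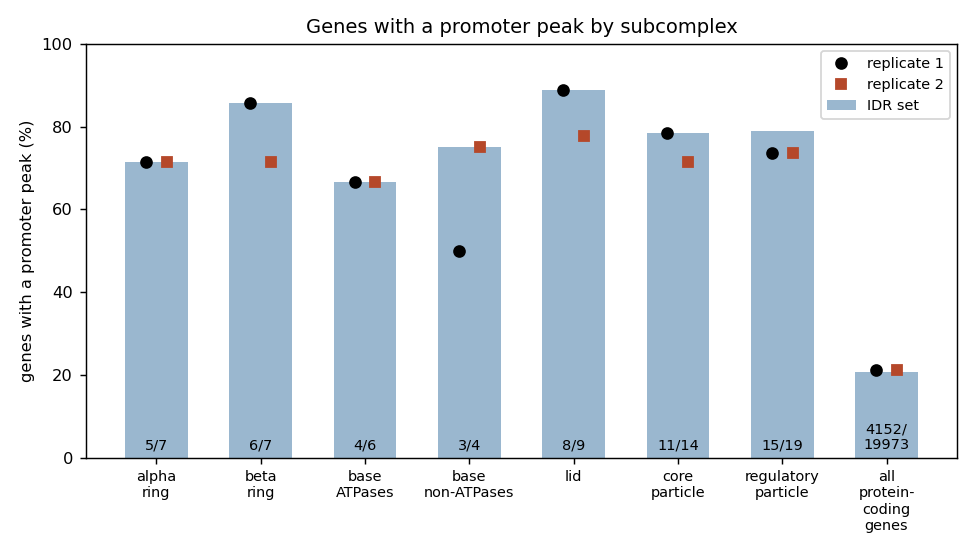
Share of genes with a promoter peak, in percent, for the 5 subcomplexes, the 2 particles and all protein-coding genes. Bars are the reproducible set, circles replicate 1 and squares replicate 2, each cut to 8540 positions, and the counts are printed in the bars. Every subcomplex lies between 66.7% and 88.9% in the reproducible set, and all protein-coding genes lie at 20.8%.

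Among the 5 subcomplexes, the lid had the highest share, with 8 of 9 genes, followed by the beta ring with 6 of 7, the non-ATPase subunits of the base with 3 of 4, the alpha ring with 5 of 7 and the base ATPases with 4 of 6. Members were taken by name, so the lid count leaves out dss-1, a small lid component without a reproducible peak. In replicates 1 and 2 the beta ring had 85.7% and 71.4%, the lid 88.9% and 77.8% and the base non-ATPases 50% and 75%, so the order does not hold beyond the replicate spread. Bound members lay on every autosome. On chromosome I, 7 of 10 proteasome genes had a peak, on II 5 of 7, on III 7 of 8, on IV 3 of 3 and on V 4 of 5, while the share of all genes was between 15.9% and 28.5% on these chromosomes. No proteasome gene was on X.

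Signal at these promoters was close to that of bound genes in general. The strongest promoter peak of the 26 bound members had a median signal of 290.3, with quartiles of 215.4 and 575.2, against a median of 275.4 and quartiles of 151.3 and 547.6 for all 4152 genes with a peak. In replicate 1 the medians were 159.2 for bound members and 143.7 for all bound genes, and in replicate 2 they were 142.5 and 132.0. The quartiles split all bound genes into 4 equal parts, and the members were spread over all of them. Below the lower quartile of all bound genes lay 4 of 26, and 8 lay between it and the median. Another 7 lay between the median and the upper quartile, and 7 above that. The core particle had a median of 300.9 and a maximum of 739.2. The regulatory particle had a median of 279.6 and a maximum of 1745. In replicate 1 the core median was 148.6 and the regulatory median 161.7. In replicate 2 they were 152.4 and 134.9, so the order of the particles changed between replicates.

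**Figure D2:**
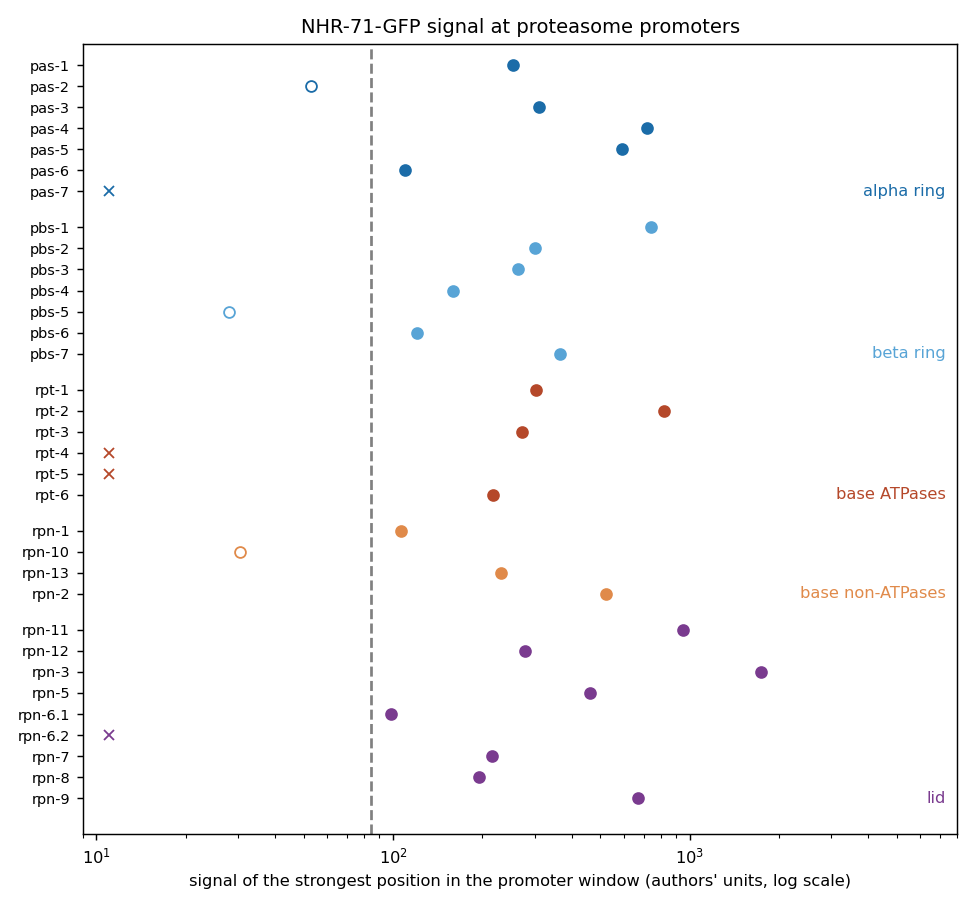
Signal of the strongest position in the promoter window of each of the 33 genes, grouped by subcomplex, on a log axis in the authors' units. Filled circles are peaks of the reproducible set, open circles are positions of the pooled list below the lowest signal of that set (dashed line, 84.15), and crosses at the left edge mark genes with no position in the pooled list, whose place on the axis is not a value. The highest value is 1745 for rpn-3, and pas-7, rpt-4, rpt-5 and rpn-6.2 have crosses.

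The alpha ring genes included strong and weak promoters. The highest was pas-4, with 362.2 in replicate 1, 354.2 in replicate 2 and 718.0 in the reproducible set (rank 865 of 8540). Next was pas-5, with 315.5, 291.0 and 592.4, whose summit lay farther from its gene start than that of any other bound member, at -921 bp, and which had a second, weaker summit of 133.7 at -332 bp. Both were above the upper quartile of all bound genes. At pas-3 the signals were 148.6 in replicate 1, 166.0 in replicate 2 and 311.8 in the reproducible set. At pas-1 they were 135.6, 119.9 and 253.7, with the summit at -879 bp and only 193 bp from the start of rpoa-12, which encodes a subunit of RNA polymerase I. The weakest bound alpha gene was pas-6, with 53.34, 49.21 and 109.9 (rank 6988), which stayed inside the strongest 8540 in both replicates.

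In the beta ring, whose members include the proteolytic subunits, pbs-1 stood above the rest with 371.7 in replicate 1, 369.0 in replicate 2 and 739.2 in the reproducible set (rank 834). At pbs-7 the signals were 214.5, 144.9 and 365.7, and at pbs-2 they were 160.7, 136.0 and 300.9. These 3 genes lay above the median of all bound genes. At pbs-3 the replicates differed more than at most members, with 99.25 in replicate 1, 159.8 in replicate 2 and 264.2 in the reproducible set, and at pbs-4 they were 83.75, 75.92 and 158.9. The lowest beta gene with a peak was pbs-6, with 70.77 (rank 5995) in replicate 1 and 44.42 (rank 8589) in replicate 2, just outside the strongest 8540 there, and 120.6 in the reproducible set.

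Among the ATPases of the base, rpt-2 had the strongest peak, chrV:6017666-6017966, with 432.4 in replicate 1, 387.4 in replicate 2 and 822.4 in the reproducible set (rank 691). The signals of rpt-1 were 164.1, 140.1 and 304.0. Those of rpt-3 were 139.2, 118.0 and 272.9, and those of rpt-6 were 96.21, 129.8 and 216.8, with a second summit of 195.5 at -241 bp. The strongest summits of rpt-3 and rpt-6 in the reproducible set lay at -675 and -750 bp, farther out than most. In replicate 1 another position in the rpt-6 window was stronger, with 124.7 against 96.21. Of the remaining base genes, rpn-2, which encodes a scaffold of the base, had 289.1, 229.4 and 523.6, and rpn-13, which encodes a ubiquitin receptor, had 104.1, 123.3 and 231.4. At rpn-1, the other large scaffold subunit, the signal was 42.17 (rank 9313) in replicate 1, outside the strongest 8540, 64.04 (rank 6324) in replicate 2 and 106.1 in the reproducible set.

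The lid held both the strongest and the weakest bound promoters of the proteasome. The strongest peak was at rpn-3, a structural lid subunit, chrIII:8446948-8447371, with 918.8 in replicate 1 (rank 166), 825.2 in replicate 2 (rank 146) and 1745 in the reproducible set (rank 155), the 1 member above 1000. Next was rpn-11, the deubiquitinating subunit that removes ubiquitin chains from substrates, chrII:4044387-4044734, with 549.8, 397.5 and 948.3 (rank 553). At rpn-9 the signals were 352.7, 320.5 and 672.5, and at rpn-5 they were 252.8, 207.5 and 460.7. The 3 highest of these genes were above the upper quartile of all bound genes. At rpn-12 the signals were 159.2, 120.7 and 279.6, at rpn-7 131.2, 79.70 and 215.0, and at rpn-8 114.5, 81.59 and 195.1. The weakest bound member was rpn-6.1, a lid subunit whose raised expression is known to increase resistance to proteotoxic stress in this worm, with 74.59 (rank 5721) in replicate 1, 29.79 (rank 11852) in replicate 2 and 98.79 in the reproducible set. A second summit of 140.3 lay inside the gene, 629 bp downstream of its start and outside the window.

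Over the 26 peaks, the log2 of replicate 2 over replicate 1 was -0.17 at the median with an SD of 0.42, against -0.12 with an SD of 0.47 over the 8426 reproducible peaks matched in both lists. The ratio ran from -1.32 at rpn-6.1 to 0.69 at pbs-3. It was higher in replicate 1 at 21 members and in replicate 2 at 5, beside 5365 and 3061 of the 8426 peaks. The scale and depth of each list are unknown, so an offset between replicates cannot be told apart from a difference in scaling. The 3 members that left the strongest 8540 in a replicate, rpn-1, pbs-6 and rpn-6.1, were among the 4 bound members below the lower quartile.

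**Figure D3:**
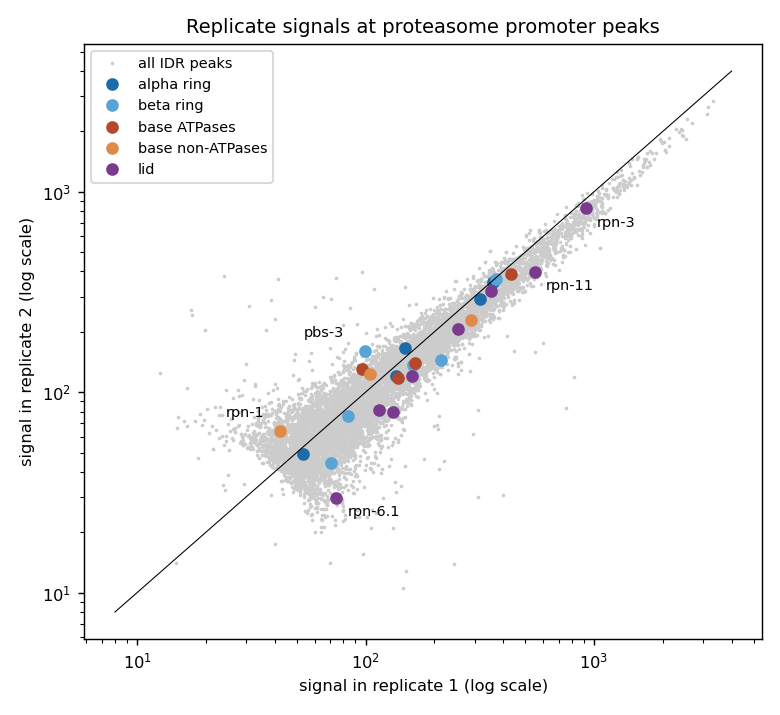
Signal in replicate 1 (x axis) and replicate 2 (y axis) of the reproducible peaks matched in both lists, on log axes in the authors' units; grey points are all such peaks, coloured points the strongest promoter peaks of 26 proteasome genes, and the line marks equal values. The labelled rpn-3 and rpn-11 are high in both replicates, while rpn-6.1, rpn-1 and pbs-3 lie farther from the line than most members.

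Of the 7 members without a reproducible peak, 3 had a weaker position in the pooled list, so that 29 of 33 had some position in the window, beside 36.9% of all genes. The alpha subunit gene pas-2 had 38.23 in replicate 1, 17.01 in replicate 2 and 53.08 in the pooled list (rank 12269). The gene pbs-5, which encodes the beta subunit with chymotrypsin-like activity, had 24.65 in replicate 1, no position in replicate 2 and 27.96 in the pooled list, and rpn-10, which encodes a ubiquitin receptor, had 22.48, none and 30.37. Both of these genes start a short way downstream of another gene on the same strand, K05C4.2 at 111 bp for pbs-5 and mrpl-9 at 119 bp for rpn-10, and each had a reproducible peak just beyond its window, 378.2 at -1165 bp for pbs-5 and 217.7 at -1412 bp for rpn-10. The rpn-10 peak lies in the windows of mrpl-9 and kin-3. Neither pas-7, rpt-4, rpt-5 nor rpn-6.2, a paralog of rpn-6.1, had any pooled position in the window, and their absence from these lists does not show that the protein is absent there. At rpt-4, which overlaps rpoa-49, a summit of 406.6 lay 2395 bp inside the gene. The nearest reproducible summit was 54590 bp downstream of the start of pas-7 and 14921 bp downstream of that of rpn-6.2, and lay at -20290 bp from rpt-5 and -13124 bp from pas-2.

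The summits lay close upstream of the gene starts. All 26 strongest summits were upstream, beside 93.5% of the strongest promoter summits of all bound genes, and 22 of 26 were within 400 bp of the start (84.6%, beside 70.8%). The median place was -201 bp, with quartiles of -345 and -145.5, against -234 bp with quartiles of -457 and -120 for all bound genes. It was -150 bp in the core particle and -262 bp in the regulatory particle. The summits ran from -921 to -117 bp in the first and from -750 to -11 bp in the second, overlapping ranges. The nearest was rpn-11 at -11 bp, then rpn-5 at -34 bp. By the annotation of protein-coding genes alone, 23 summits lay outside any gene and 1 lay in an intron of F57B9.1, upstream of rpn-6.1. Another 2 lay in untranslated exons of upstream genes, ulp-2 before pbs-3 and chtb-2 before rpt-3. Non-coding genes were not considered, and the same shares over all bound genes were not worked out.

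**Figure D4:**
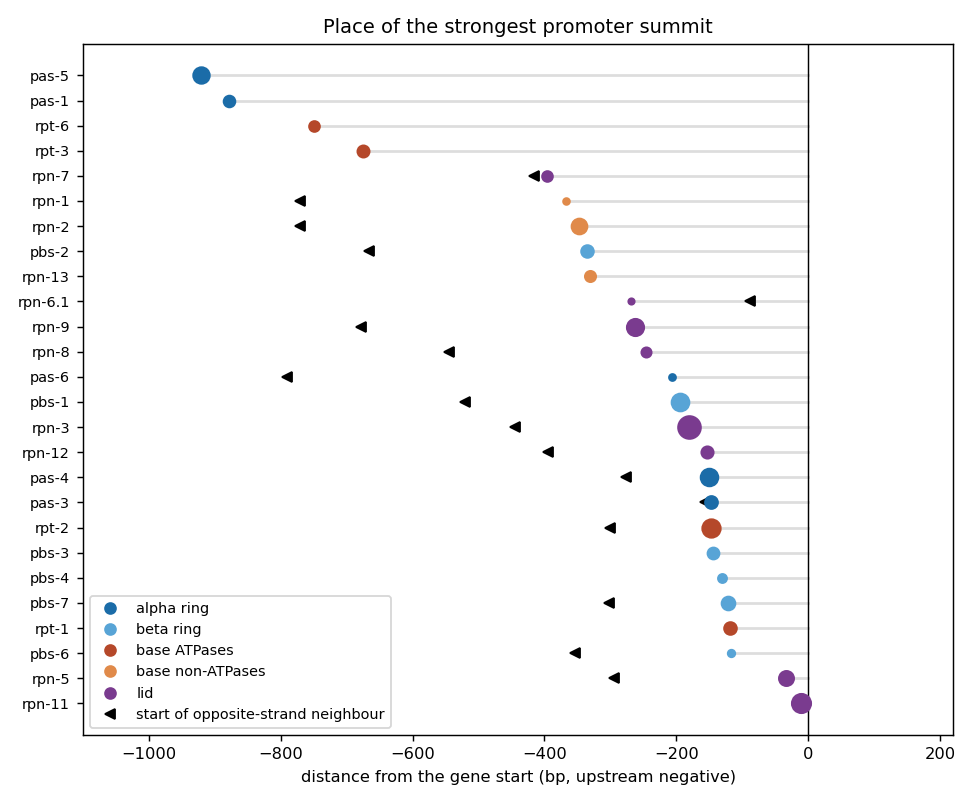
Distance in bp from the gene start (vertical line, upstream negative) to the strongest promoter summit of each of the 26 bound members; circle area rises with signal, colour gives the subcomplex, and black triangles mark the start of an opposite-strand neighbour within 1000 bp. The summits of 22 members lie within 400 bp of the start, and pas-5, pas-1, rpt-6 and rpt-3 lie farther out.

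Many of these promoters are shared with a gene on the opposite strand. Among the 33 proteasome genes, 21 had an opposite-strand neighbour upstream within 1000 bp or overlapping the start (63.6%), against 21.3% of all protein-coding genes. Of those 21, 17 had a peak, beside 35.2% of all genes with such a neighbour. Of the 12 without one, 9 had a peak, beside 16.9% of all genes without one, so the members' share was above that of all genes in either arrangement. The strongest summit of 19 bound members also fell in the window of another gene (73.1%, against 41.4% of all bound genes). The other 7, at pas-5, pbs-3, pbs-4, rpt-1, rpt-3, rpn-11 and rpn-13, were in no other window. A summit between 2 starts cannot be assigned to one of them from these lists.

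For 19 of the 26 bound members its own start was the nearest to its strongest summit (73.1%, beside 78.0% of all bound genes). With rpn-3, the strongest, the other gene was hsp-110, which encodes a chaperone of the Hsp110 family, and the rpn-3 start was nearer. The same held for rpt-2 with aps-1, an adaptor complex subunit, for rpn-5 with scc-1, a cohesin subunit, for rpn-12 with rad-23, a carrier of ubiquitylated proteins, for rpn-8 with mrps-6, a mitochondrial ribosomal protein, and for rpn-1 with ribo-1, of the oligosaccharyltransferase. It held as well for pbs-1 with K08D12.3, pbs-6 with cids-1, pbs-7 with F39H11.1, pas-6 with CD4.11, rpn-2 with C23G10.7 and rpn-9 with T06D8.9. For 7 members another start was nearer: rpoa-12 at pas-1, use-1 at pas-3, rpb-3 (an RNA polymerase II subunit) at pas-4, eif-6 (a ribosome biogenesis and translation factor) at pbs-2, his-72 (a histone H3.3) at rpt-6, F57B9.1 at rpn-6.1 and F49C12.9 at rpn-7. Of these, rpoa-12 lies on the same strand as pas-1, 107 bp upstream of it, and the summit lies beyond the rpoa-12 start. When a summit counted only for its nearest start, 20 of 33 members still had one, beside 16.5% of all genes, with rpt-6 kept through its second summit. These were 7 of 14 core particle genes and 13 of 19 regulatory particle genes.

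GTCAT and ATCAT, the core words known for SKN-1, occurred at more of the members' summits than at those of bound genes in general. Only the 5 bases of each word were matched, and binding by SKN-1 was not tested. In the 100 bp centred on the strongest summit, on both strands, GTCAT was present at 14 of 26 members (53.8%), against 16.2% of the 3270 distinct strongest promoter peaks of all bound genes. ATCAT was present at 11 of 26 (42.3%, against 18.4%), either word at 20 (76.9%, against 30.5%) and both at 5 (19.2%, against 4.01%). In the core particle 7 of 11 windows held GTCAT and 3 of 11 ATCAT, and in the regulatory particle 7 of 15 and 8 of 15. In windows of the same length 300 bp upstream and downstream of the summit, GTCAT was at 3 and 5 members (11.5% and 19.2%, against 12.4% and 13.7%) and ATCAT at 8 and 9 (30.8% and 34.6%, against 22.9% and 22.4%). Among members, GTCAT was thus far more frequent at the summit than in the flanks, while the ATCAT count of 11 at the summit was close to those of the flanks. In the 300 bp at the gene start, 250 before and 50 after it, GTCAT was at 17 of 26 bound members (65.4%) and ATCAT at 15 (57.7%), and over all 19973 protein-coding genes, with or without a peak, the shares were 39.5% and 55.6%.

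**Figure D5:**
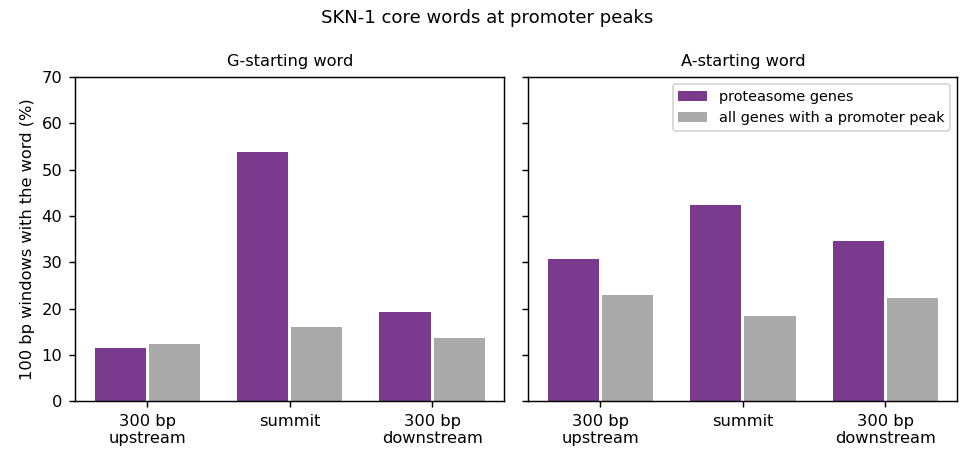
Share of 100 bp windows, in percent, that hold GTCAT (left panel, the word starting with G) or ATCAT (right panel, the word starting with A) at the strongest summit and 300 bp to either side, for the peaks of 26 proteasome genes and the 3270 distinct strongest promoter peaks of all bound genes. The left panel has 53.8% against 16.2% at the summit, and its flanks have 11.5% against 12.4% upstream and 19.2% against 13.7% downstream. The right panel has 42.3% against 18.4% at the summit, and its flanks have 30.8% against 22.9% upstream and 34.6% against 22.4% downstream.

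The remaining 4 words searched were at 0 or 1 of the 26 summits each, too few to set apart from the shares over all bound genes. AGGTCA, the word known from sites of many nuclear receptors, was at 0 of 26 (beside 3.33% of all), and CACGTG, the E-box, was at 0 of 26 (beside 5.26%). The TGATAA word was found at rpn-6.1 alone (beside 8.59%), and the CTGCGTC word at rpn-9 alone (beside 10.6%). A GTCAT match can overlap an AGGTCA match, and on the opposite strand an ATCAT match can overlap TGATAA. With 200 bp at the summit, AGGTCA was at 1 member (beside 6.21%) and TGATAA at 2 (beside 17.2%), and in the 300 bp at the gene start TGATAA was at 8 of 26 (30.8%, beside 30.2% of all protein-coding genes). The 100 bp windows had a median GC content of 42.0% for members, ranging from 32.0% to 54.0%, and 44.0% for all. A word is a match of letters and not a binding site, and windows without one do not show that a factor is absent.

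Other genes of the ubiquitin and proteasome system were bound less completely. Of 19 genes in 4 lists, 7 had a reproducible promoter peak (36.8%, beside the 20.8% of all genes), with 9 in replicate 1 and 8 in replicate 2 when each was cut to 8540 positions. All 4 genes of ubiquitin and its activation had one: ubq-2, a ubiquitin fused to a ribosomal protein, with 874.0, ubl-1, a ubiquitin-like protein fused to a ribosomal protein, with 661.0, ubq-1, the polyubiquitin gene, with 184.2 at -616 bp, and uba-1, the ubiquitin-activating enzyme, with 122.1. A stronger reproducible summit of ubq-1, 321.0, lay 402 bp inside the gene and outside the window. The ubq-2 summit, at -480 bp, was nearer the start of frg-1. Among 4 genes of proteasome-associated proteins, the deubiquitinases usp-14 and ubh-4 had peaks of 353.9 and 332.5, in windows shared with vnut-1 and algn-6, and dss-1, a small lid component, and psmd-9, a chaperone of proteasome assembly, had none. Of 5 genes for the control of proteasome expression, sel-1, of endoplasmic reticulum degradation, had a peak of 150.6. The promoter windows of skn-1 itself (20.88 in the pooled list), of sel-11 (31.89) and of ddi-1 and png-1, whose products process SKN-1, held no reproducible peak. Inside the skn-1 gene, beyond the window at its annotated start, lay 6 reproducible summits, the nearest with a signal of 306.0 at 1966 bp downstream of that start. In the COP9 signalosome, a complex whose subunits are related to those of the lid, 0 of 6 genes had a reproducible peak, although csn-5, its catalytic subunit, had 83.50 in replicate 1 (rank 5164) and 80.42 in replicate 2 (rank 5121) but only 18.82 in the pooled list. At csn-6 the signals were 55.92 in replicate 1, 16.90 in replicate 2 and 73.73 in the pooled list, below the reproducible set.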

How the data were processed

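Chromatin immunoprecipitation was sequenced from 2 biological replicates, with no read counts in the lists used, so the depth per library is unknown. The authors deposited ranked positions on ce11 for each replicate and for pooled alignments, and a set thresholded by irreproducible discovery rate (IDR), per the files that list them; neither the caller, its version nor the threshold is given in the sources used here. The signal of each position is the value the authors deposited, and the deposited −log10 q-value has 1 distinct value in the reproducible set, so it was not used. Lists on the older ce10 build were not used.

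Summits were placed by the peak start and offset and assigned to every protein-coding gene of Ensembl release 115 whose window held them, 1000 bp upstream to 200 bp downstream of the gene start. The strongest summit gave the signal of a gene. Replicate lists were cut to 8540 positions, the size of the IDR set, and gave the mean ± SD. Sequence was read from the RefSeq WBcel235 genome. No test across genes was run: there is 1 group, and members are not replicates. Every member, every gene of the pathway lists and every gene sharing a member's strongest summit is named. The members and lists were chosen with earlier results of these data known. The assignment was tested on simulated data. Alternatives changed the window, list, assignment and gene start. Tools were Python 3.11.15, NumPy 2.4.6, pandas 2.3.3 and Matplotlib 3.10.9.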

Additional observations from a re-analysis of the deposited data

How the results depend on the processing

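With the window at 500 bp upstream, 24 of 33 proteasome genes had a peak (16.6% of all genes), without pas-1 and rpt-3, and with 2000 bp 28 did (26.8% of all), with pbs-5 and rpn-10 added. Keeping the 4270 strongest reproducible peaks left 21 members, without pas-6, rpn-1, pbs-4, pbs-6 and rpn-6.1, and 2671 of all genes (13.4%), and 4 genes of the pathway lists. Counting a summit only for its nearest start left 7 of 14 core particle genes (50%), against 11, with 2 alpha ring genes, against 5, while 13 of 19 regulatory particle genes were left (68.4%), against 15. Starting at the start codon, or counting any overlap of a peak with the window, gave 26 members each, beside 20.7% and 22.3% of all genes. The median signal of bound members was 302.4 with 2000 bp. Their median rank was 2854, and 2681 to 2869 when a replicate was left out. The median place moved to -188 bp with 500 bp, -226.5 bp with 2000 bp and -188 bp with the nearest start only. No paired analysis was possible because there is 1 group and no result comes from a test. The flanking windows 300 bp from the summits were added after seeing the data. With 2 replicates and no read counts, an absent position is a limit of these lists.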
